A study of Homo sapiens with 12 samples.

Results

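Aminoacyl-tRNA synthetase genes were described in TE-1, a cell line from human oesophageal cancer, after the level of the interferon-induced gene IFI6 had been raised or lowered. The members were taken by symbol: every protein-coding gene named with a single amino acid letter followed by ARS, with or without a closing 1 or 2, together with EPRS, FARSA and FARSB. This gave 37 of the 19771 protein-coding genes, 20 cytosolic and 17 mitochondrial; the mitochondrial symbols are those that end in 2. The rule itself uses symbols and no measured value, but the members were chosen with earlier results of these data known.

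Each aminoacyl-tRNA synthetase joins an amino acid to its cognate tRNA, the step that sets the genetic code. The cytosol and the mitochondrion mostly use enzymes from separate nuclear genes, but GARS (glycine) and KARS (lysine) each encode the enzymes of both compartments. The cytosolic enzymes for arginine, aspartate, glutamine, isoleucine, leucine, lysine and methionine and the bifunctional EPRS (glutamate and proline) assemble with the scaffold proteins AIMP1, AIMP2 and EEF1E1 into the multisynthetase complex. Many cytosolic synthetase genes are known targets of ATF4, the transcription factor of the integrated stress response.

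RNA from 12 libraries in 4 groups of 3 was sequenced 48 h after vectors were transfected into TE-1 cells kept in DMEM with 10% FBS. OE_IFI6 received the vector that overexpresses IFI6 and OE_control its control vector. The knockdown groups were sh_IFI6, with a short hairpin vector against IFI6, and sh_control, with the control hairpin. All 4 groups are the same line and all were transfected, and no untransfected cells were compared. The labels give neither the vector backbones nor the hairpin sequence, and it is not stated that the 3 libraries within a group were grown as separate cultures. A p-value here therefore reflects only how far these samples spread, and that spread may be technical. The stated purpose was to find genes and pathways affected when IFI6 expression differs.

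Values are FPKM, the authors' fragment numbers scaled to transcript length and library size, so levels can be set side by side between genes. Fold changes are log2(FPKM + 1) differences with their standard error (SE). "Rose" and "fell" are used of genes with a limma Benjamini-Hochberg adjusted p under 0.05 over the 10925 coding genes that averaged 1 FPKM or more. All 37 synthetase genes were among these. In bulk RNA, fewer cells of a type and less RNA per cell cannot be told apart.

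IFI6 itself (chromosome 1, 27666064 to 27672198) stood at 309, 268 and 358 FPKM in OE_IFI6, against 27.3, 17.9 and 28.8 FPKM in OE_control (log2 fold change 3.62, SE 0.17, limma adjusted p = 4.7e-07). It stood at 15.1, 13.9 and 14.7 FPKM in sh_IFI6, against 24.9, 24.1 and 21.2 FPKM in sh_control, a log2 difference of -0.64 that did not pass (limma adjusted p = 0.82). In neither contrast did the libraries overlap, and an exact permutation test of 3 against 3 gave its smallest possible p, 0.1, in both. Summed coding FPKM was 325877 to 357145 per library. On the first principal component, with 23.1% of the variance, the OE_control libraries lay at 22.2 to 30.6 and the other 9 libraries between -11.3 and -5.9, so OE_IFI6 against sh_control is given below beside the counts that rest on OE_control. The epithelial keratins KRT8 (706 to 1160 FPKM), KRT18 (355 to 543 FPKM) and KRT7 were high, while EPCAM was listed at 0 in every library and CDH1 reached at most 0.171 FPKM. Of the 6 epithelial markers looked up, 3 met the minimum mean. Of the squamous markers, KRT5, KRT6A and SOX2 were listed at 0, TP63 reached at most 0.332 FPKM, and none of the 7 met the minimum mean. Of 9 markers of other cell types, CD3E was listed at 0, PTPRC reached at most 0.192 FPKM, and the 4 that were tested had means of 1.06 to 2.14 FPKM with 0 calls by limma.

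Levels of the 37 genes spanned a wide range. Averaged over the 12 libraries, the cytosolic isoleucine enzyme IARS was highest at 128 FPKM. The next were IARS2, its mitochondrial counterpart, at 107 FPKM, SARS (serine) at 105 FPKM and AARS (alanine) at 101 FPKM. The lowest were HARS (histidine, cytosolic) at 4.17 FPKM, PARS2 (proline, mitochondrial) at 2.93 FPKM and AARS2 (alanine, mitochondrial) at 2.79 FPKM. IARS2, SARS and AARS followed one another closely, and their order changed between groups.

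Start regions are shown for the synthetase genes whose promoter window held TGATGNAA, the core of the C/EBP-ATF response element that ATF4 is known to bind with C/EBP partners, because several cytosolic synthetases are known to be regulated through it. RefSeq windows (GRCh38.p14) of 250 bases before to 50 after each annotated start were found for 30 of the 37 genes and searched on both strands. A match stood in 7 of 16 cytosolic genes (43.8%) and in 1 of 14 mitochondrial genes (7.14%), beside 4.46% of all 27305 genes. The matches, in capitals with 10 bases on each side and read 5′ to 3′ on the gene's own strand, were as follows.
TARS, chr5:33440957-33440984, plus strand: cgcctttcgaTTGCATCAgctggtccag
GARS, chr7:30594835-30594862, plus strand: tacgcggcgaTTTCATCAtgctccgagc
IARS, chr9:92293693-92293720, minus strand: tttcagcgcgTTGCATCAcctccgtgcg
CARS, chr11:3057408-3057435, minus strand: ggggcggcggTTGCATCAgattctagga
MARS, chr12:57488054-57488081, plus strand: ccggttccggTTGCATCAgcgagggatt
AARS, chr16:70289676-70289703, minus strand: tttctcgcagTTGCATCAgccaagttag
NARS, chr18:57621805-57621832, minus strand: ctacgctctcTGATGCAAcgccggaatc
YARS2, chr12:32756077-32756104, minus strand: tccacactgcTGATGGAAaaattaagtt
In 6 of the 8 genes the motif lay on the strand opposite to the gene, which is why TTGCATCA or TTTCATCA is read above, and in 6 it began within 40 bases of a start. The exceptions in position were AARS and YARS2, at 187 and 197 bases before the start. A match is a description of the sequence and not a measured binding site.

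Overexpression of IFI6 was compared with its control vector to ask which synthetase genes differ when IFI6 is raised. Of all 37 members 10 passed, beside 7.66% of all coding genes. Of the 20 cytosolic genes, 6 fell and 0 rose: GARS, WARS (tryptophan, known to be induced by interferon), SARS, CARS (cysteine), YARS (tyrosine) and MARS (methionine). Among all coding genes, 3.56% fell and 4.1% rose. The median log2 fold change was -0.26 over the cytosolic genes, beside 0.05 over all genes tested. Of the 20 genes 15 were negative, beside 4739 of all 10925 genes. The same OE_IFI6 libraries set against sh_control gave 0 calls by limma, 0 at an unadjusted p under 0.05, and a median of -0.04. Of all 10925 genes, 0.0183% passed there and 503 had an unadjusted p under 0.05, also with a median of -0.04.

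GARS, the glycine enzyme of both compartments (ENSG00000106105, chromosome 7, 30594838 to 30634033), is shown first. It stood at 56.7, 50.2 and 58.7 FPKM in OE_IFI6, against 116, 107 and 97.2 FPKM in OE_control. Every OE_IFI6 library lay far below every OE_control library (log2 fold change -0.94, SE 0.11, limma adjusted p = 0.00038). WARS (ENSG00000140105, chromosome 14, 100333790 to 100376805) stood at 19.2, 17.9 and 20.4 FPKM in OE_IFI6, against 33.0, 36.7 and 39.5 FPKM in OE_control. The groups were again apart, and the change of -0.89 was of like size (SE 0.10, limma adjusted p = 0.00042). GARS and WARS kept their calls in all 22 alternative analyses, with log2 fold changes of -1.06 to -0.87 and -0.96 to -0.83. SARS (ENSG00000031698, chromosome 1, 109213918 to 109238182) stood at 84.9, 93.0 and 101 FPKM in OE_IFI6, against 127, 133 and 136 FPKM in OE_control. Its libraries did not overlap either (log2 fold change -0.51, SE 0.10, limma adjusted p = 0.0084), and the call was lost in 1 of 22 alternatives, a fit of the 6 libraries compared alone (limma adjusted p = 0.11).

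CARS (ENSG00000110619, chromosome 11, 3000922 to 3057613) stood at 9.19, 15.6 and 15.8 FPKM in OE_IFI6, against 20.6, 29.2 and 29.3 FPKM in OE_control. The groups did not overlap, but replicate 1 was the lowest library in each (log2 fold change -0.93, SE 0.21, limma adjusted p = 0.022). Without OE_IFI6 replicate 1 the change was -0.69 (limma adjusted p = 0.06), and without OE_control replicate 2 or 3 it was -0.85 (limma adjusted p = 0.064 and 0.076). MARS (ENSG00000166986, chromosome 12, 57475445 to 57520501) stood at 10.3, 7.68 and 6.90 FPKM in OE_IFI6, against 12.0, 14.4 and 16.4 FPKM in OE_control. Its highest OE_IFI6 library came close to its lowest OE_control library (log2 fold change -0.73, SE 0.19, limma adjusted p = 0.037). The call held in 10 of 22 alternatives, and it was lost without OE_IFI6 replicate 2 or 3, OE_control replicate 2 or 3, sh_IFI6 replicate 2 or any sh_control library (limma adjusted p = 0.051 to 0.12).

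YARS (ENSG00000134684, chromosome 1, 32775237 to 32818153) stood at 18.8, 18.3 and 25.7 FPKM in OE_IFI6, against 24.5, 45.1 and 40.5 FPKM in OE_control. It was the only one of the 6 whose groups overlapped, through OE_control replicate 1 (log2 fold change -0.75, SE 0.21, limma adjusted p = 0.049). The call held in 7 of 22 alternatives; without OE_IFI6 replicate 1 or 2, OE_control replicate 2 or 3, or any sh library, limma adjusted p was 0.057 to 0.14. AARS (ENSG00000090861, chromosome 16, 70252295 to 70289543) stood at 97.8, 89.1 and 97.8 FPKM in OE_IFI6, against 111, 124 and 133 FPKM in OE_control. These libraries did not overlap, yet the difference of -0.37 (SE 0.10) just missed the threshold (limma adjusted p = 0.051), and it passed in 5 of 22 alternatives, among them the one without OE_control replicate 1 (-0.44, limma adjusted p = 0.036).

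**Figure D1:**
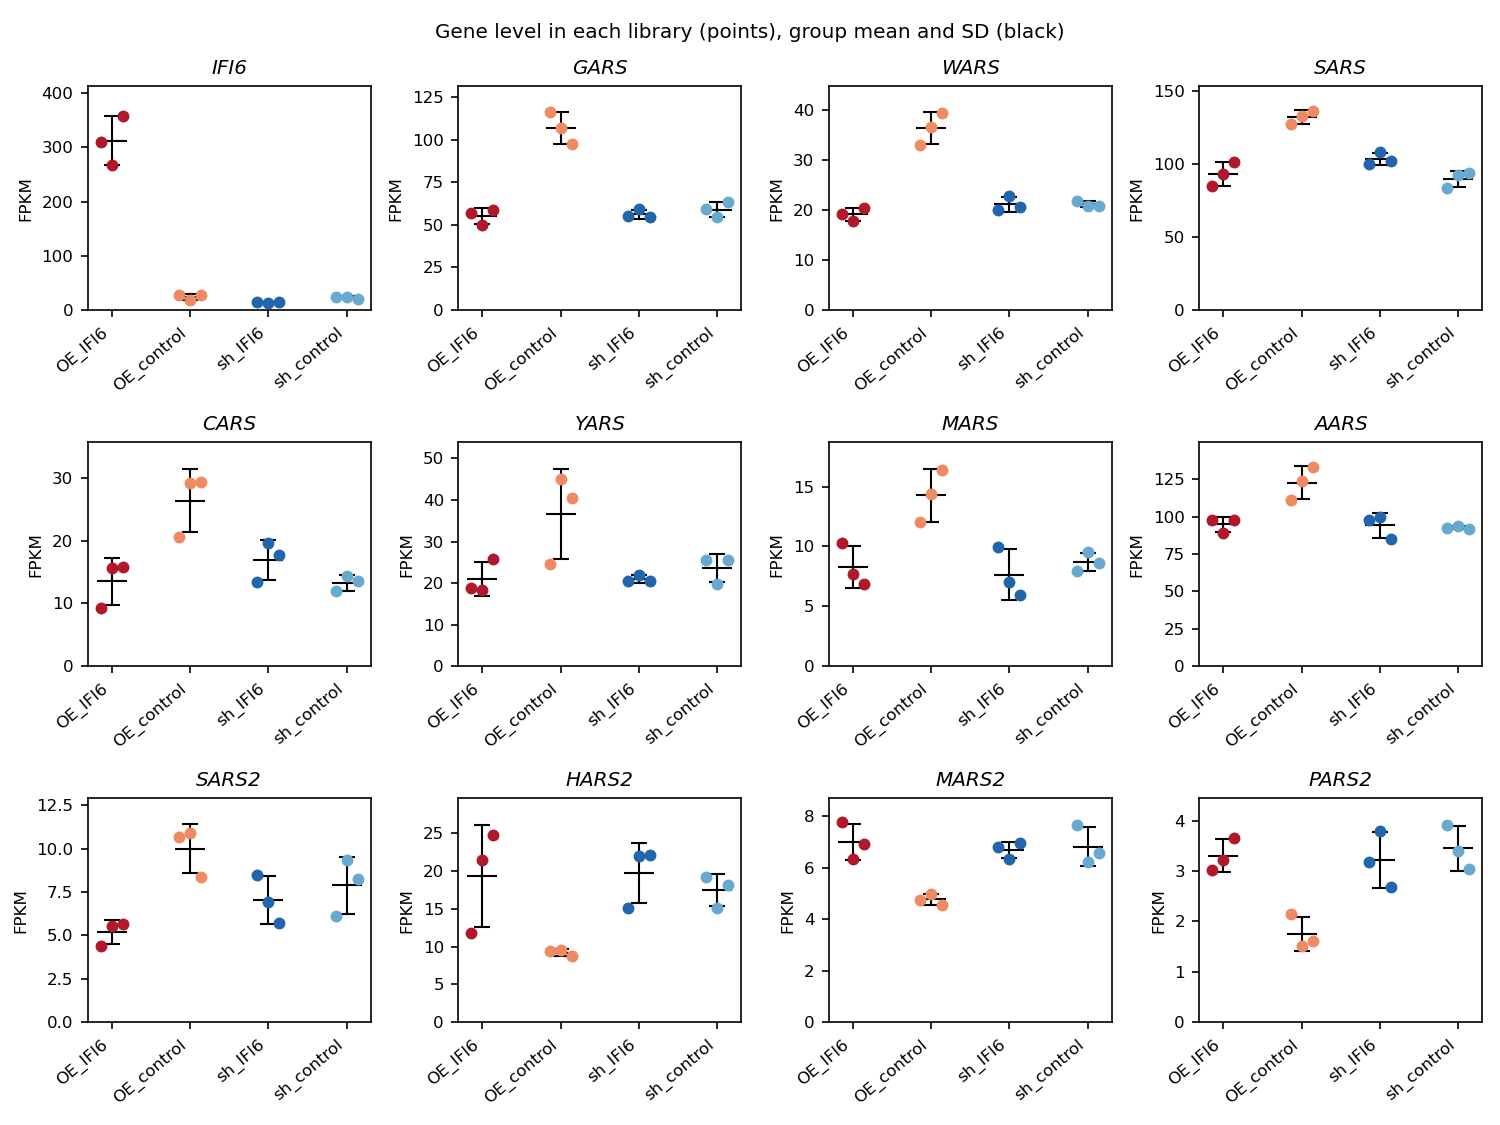
FPKM of IFI6, of 7 cytosolic and of 4 mitochondrial synthetase genes, with 1 panel per gene, points for libraries, and the group mean with its SD in black. GARS is at 50.2 to 58.7 FPKM in OE_IFI6 and 97.2 to 116 FPKM in OE_control, and the OE_IFI6, sh_IFI6 and sh_control libraries of most panels lie near one another.

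The other 13 cytosolic genes did not pass. VARS (valine) stood at 40.9, 30.4 and 33.9 FPKM in OE_IFI6, against 42.2, 42.9 and 47.1 FPKM in OE_control, and IARS stood at 110, 130 and 128 FPKM in OE_IFI6, against 131, 169 and 134 FPKM in OE_control. Neither overlapped between groups, with log2 differences of -0.33 and -0.23 (limma adjusted p = 0.18 and 0.25). TARS (threonine) averaged 60.5 ± 13.3 FPKM in OE_IFI6 and 81.8 ± 10.3 FPKM in OE_control (SD, n = 3 each) and overlapped, with a difference of -0.44 (limma adjusted p = 0.12). Without OE_IFI6 replicate 2 that of TARS was -0.61 and passed (limma adjusted p = 0.04). EPRS stood at 71.3, 105 and 63.2 FPKM in OE_IFI6, against 87.5, 98.9 and 75.3 FPKM in OE_control, with wide overlap (log2 difference -0.15, limma adjusted p = 0.66). KARS, the lysine enzyme of both compartments (ENSG00000065427, chromosome 16, 75627474 to 75648643), stood at 70.0, 100.0 and 83.1 FPKM in OE_IFI6, against 74.7, 105 and 97.0 FPKM in OE_control, and also overlapped (-0.13, limma adjusted p = 0.71). Of the genes that serve both compartments, GARS therefore fell while KARS did not pass; the difference between them was not tested. The smallest differences were those of NARS (asparagine), at -0.01, and RARS (arginine), at -0.04, and the highest were those of HARS and FARSB (a phenylalanine subunit), both at 0.16. In all, 8 of the 20 cytosolic genes were lower in OE_IFI6 with no overlap between libraries and 0 were higher, beside 9.78% and 13.5% of all genes.

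Among the mitochondrial enzymes most calls ran the other way. Of 17 genes, 3 rose, PARS2, MARS2 (methionine) and HARS2 (histidine), and 1 fell, SARS2 (serine), beside the 4.1% and 3.56% of all genes. Their median log2 fold change was 0.13, beside 0.05 over all genes tested. Of the 17 genes 12 were positive, beside 6186 of all 10925 genes. Set against sh_control, OE_IFI6 again gave 0 calls by limma, with 1 at an unadjusted p under 0.05 (SARS2) and a median of -0.00. Over all genes 0.0183% passed there, 503 of 10925 had an unadjusted p under 0.05, and the median was -0.04.

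PARS2 (ENSG00000162396, chromosome 1, 54756898 to 54764523) stood at 3.02, 3.22 and 3.66 FPKM in OE_IFI6, against 2.14, 1.51 and 1.62 FPKM in OE_control. The groups did not overlap, although both lie near the level at which a log2(FPKM + 1) fold change understates the difference (0.64, SE 0.14, limma adjusted p = 0.016). The call was kept in 19 of 21 alternatives and lost without OE_control replicate 3 (0.61, limma adjusted p = 0.057). MARS2 (ENSG00000247626, chromosome 2, 197705369 to 197708387) stood at 7.75, 6.33 and 6.91 FPKM in OE_IFI6, against 4.75, 4.99 and 4.56 FPKM in OE_control. Its 3 OE_control libraries were close together and all below OE_IFI6 (0.47, SE 0.11, limma adjusted p = 0.027). Without OE_IFI6 replicate 1, OE_control replicate 1 or OE_control replicate 3, limma adjusted p was 0.06 to 0.089.

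HARS2 (ENSG00000112855, chromosome 5, 140691430 to 140699305) stood at 11.8, 21.4 and 24.8 FPKM in OE_IFI6, against 9.41, 9.48 and 8.70 FPKM in OE_control. OE_control was tight, whereas OE_IFI6 replicate 1 lay near it and the other two OE_IFI6 libraries far above (log2 fold change 0.93, SE 0.23, limma adjusted p = 0.031). Leaving out OE_IFI6 replicate 2 or 3 or any OE_control library ended the call (limma adjusted p = 0.062 to 0.1). SARS2 (ENSG00000104835, chromosome 19, 38915266 to 38930896) stood at 4.41, 5.57 and 5.67 FPKM in OE_IFI6, against 10.7, 10.9 and 8.37 FPKM in OE_control. All OE_IFI6 libraries were lower (-0.82, SE 0.18, limma adjusted p = 0.017), and the call was lost without OE_IFI6 replicate 1, OE_control replicate 1 or OE_control replicate 2 (limma adjusted p = 0.05 to 0.059). The other 13 mitochondrial genes did not pass, from LARS2 (leucine) at -0.43 (limma adjusted p = 0.15) to TARS2 (threonine) at 0.24 (limma adjusted p = 0.28). FARS2 (phenylalanine) was the only one of them without overlap, at 30.5, 31.1 and 34.5 FPKM in OE_IFI6, against 29.8, 26.1 and 26.4 FPKM in OE_control.

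Genes for the same amino acid did not always move alike. MARS fell and MARS2 rose, at -0.73 and 0.47. With coding transcripts alone the MARS difference was -0.11 (limma adjusted p = 0.87), and the span of MARS overlaps that of DDIT3, as described below. SARS and SARS2 both fell, at -0.51 and -0.82. HARS, the cytosolic histidine gene (ENSG00000170445, chromosome 5, 140673904 to 140691537), stood at 4.64, 3.43 and 4.17 FPKM in OE_IFI6, against 2.66, 3.44 and 4.75 FPKM in OE_control. It overlapped widely (0.16, SE 0.17, limma adjusted p = 0.65), while HARS2 rose at 0.93. The difference between the genes of such a pair was not tested.

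HARS and HARS2 lie head to head on chromosome 5, and their RefSeq starts are 85 bases apart. The interval shown here, with the start of each gene in capitals, is what the pair shares: a plus-strand sequence that reads away from HARS at its first base and into HARS2 at its last.
HARS and HARS2, chr5:140691370-140691455, plus strand: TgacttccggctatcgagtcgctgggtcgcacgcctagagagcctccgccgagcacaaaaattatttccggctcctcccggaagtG
The deposited spans of the 2 genes overlap, and as strand use is not given, their reads near this interval cannot be told apart.

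**Figure D2:**
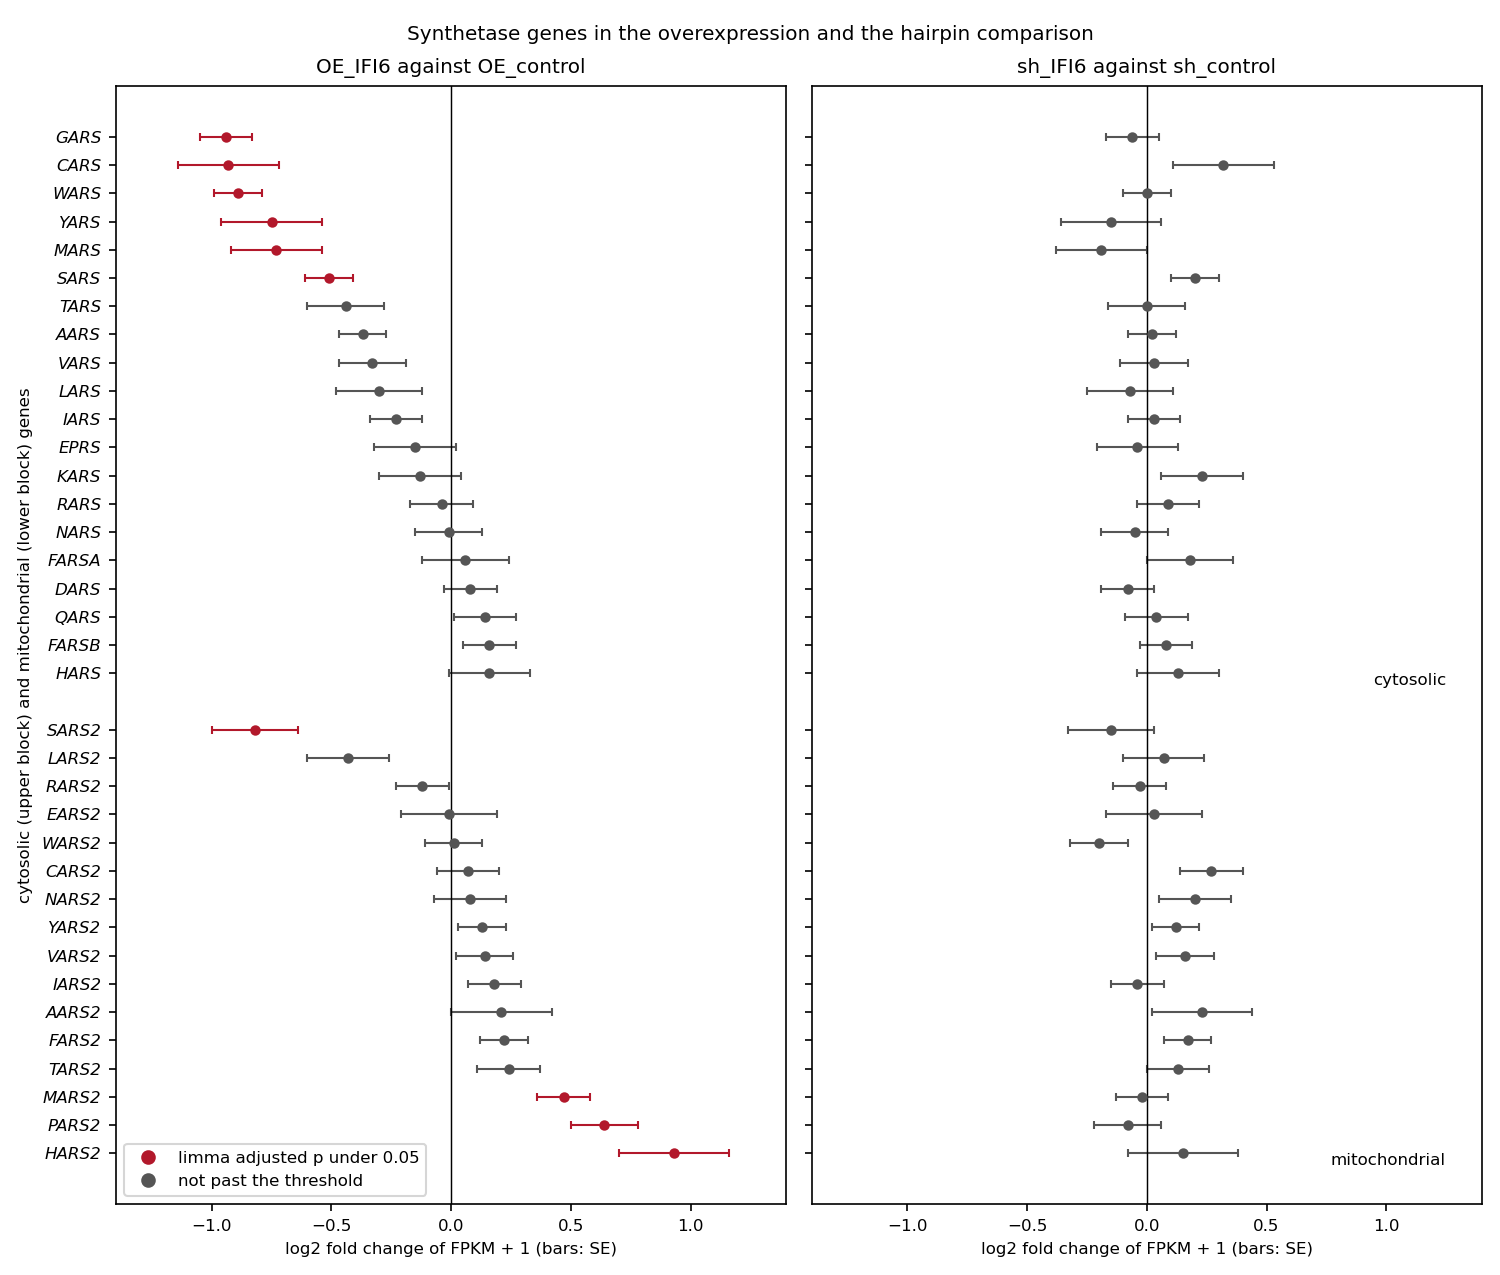
Log2 fold changes of FPKM + 1 with SE bars for 36 synthetase genes, OE_IFI6 against OE_control on the left and sh_IFI6 against sh_control on the right, cytosolic genes above mitochondrial ones and red marking limma adjusted p under 0.05. On the left the cytosolic genes run from -0.94 to 0.16 with 6 in red, and on the right none is red.

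Summed over genes, the cytosolic synthetases reached 914, 1039 and 975.4 FPKM in OE_IFI6, against 1179, 1287 and 1181 FPKM in OE_control. The mitochondrial sum was 368.3, 404.8 and 419.2 FPKM in OE_IFI6, against 355.7, 390.1 and 358.8 FPKM in OE_control. The cytosolic sums did not overlap and the mitochondrial ones did. The ratio of the cytosolic to the mitochondrial sum was 2.48, 2.57 and 2.33 in OE_IFI6, against 3.31, 3.30 and 3.29 in OE_control. In the hairpin groups the ratio was 2.55, 2.51 and 2.36 in sh_IFI6, against 2.52, 2.51 and 2.50 in sh_control, so the OE_control libraries stood above the other 9. No test was run on these sums.

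**Figure D3:**
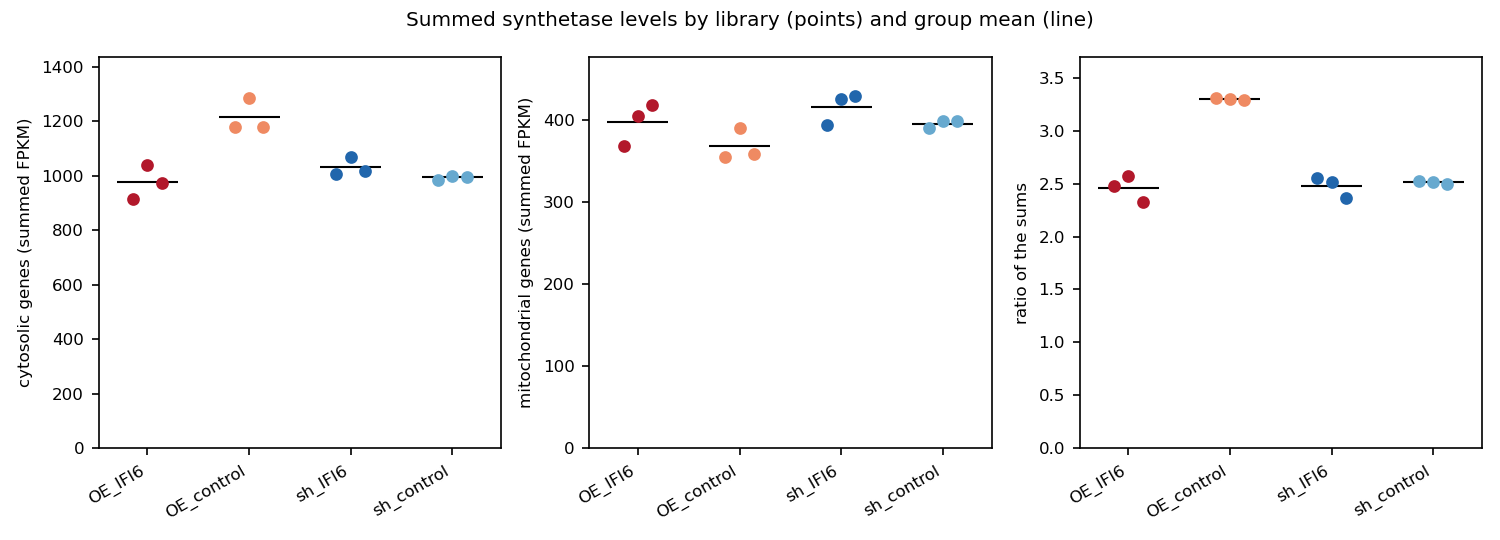
Summed FPKM of the 20 cytosolic genes, of the 17 mitochondrial genes, and the ratio of the sums, by group, with points for libraries and a line at the group mean. The ratio is 3.29 to 3.31 in OE_control and 2.33 to 2.57 in the other 9 libraries.

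Knockdown was compared with its control hairpin to ask whether lower IFI6 changes these genes. IFI6 itself differed by only -0.64 here and did not pass (limma adjusted p = 0.82), beside 3.62 in the overexpression comparison. None of the 37 passed by limma, and 0 reached an unadjusted p under 0.05, in a comparison in which 0.0% of all coding genes passed and 563 had an unadjusted p under 0.05. The median log2 difference was 0.02 over cytosolic and 0.07 over mitochondrial genes, beside 0.00 over all genes, and single genes ran from -0.20 to 0.32. GARS stood at 54.9, 59.3 and 54.7 FPKM in sh_IFI6, against 59.0, 54.4 and 63.5 FPKM in sh_control. WARS stood at 20.0, 22.8 and 20.6 FPKM in sh_IFI6, against 21.9, 20.8 and 20.9 FPKM in sh_control. Both overlapped fully, with log2 differences of -0.06 and -0.00 (limma adjusted p = 0.92 and 0.99). SARS stood at 100.0, 108 and 102 FPKM in sh_IFI6, against 83.3, 92.2 and 93.7 FPKM in sh_control, higher without overlap but short of the threshold (0.20, limma adjusted p = 0.82). CARS had the largest difference, at 13.4, 19.6 and 17.7 FPKM in sh_IFI6, against 11.9, 14.3 and 13.6 FPKM in sh_control, with overlap (0.32, limma adjusted p = 0.82). Without overlap, 4 of the 37 genes were higher and 2 lower in sh_IFI6, beside 9.46% and 9.61% of all genes.

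The difference between the overexpression effect and the hairpin effect was tested as an interaction term. GARS (-0.87, SE 0.15, limma adjusted p = 0.012), WARS (-0.89, SE 0.15, limma adjusted p = 0.0097) and SARS (-0.71, SE 0.13, limma adjusted p = 0.019) passed, so the overexpression effect was the lower one for these 3 of 20 cytosolic genes. Of all genes 2.69% passed, 1.51% in this direction and 1.18% in the other. For SARS the call was lost without OE_control replicate 3, sh_IFI6 replicate 2 or 3, or sh_control replicate 1 (limma adjusted p = 0.05 to 0.061). CARS had the largest difference, -1.25 (SE 0.30, limma adjusted p = 0.052), and passed in 6 alternatives, among them those without OE_IFI6 replicate 3 (-1.37, limma adjusted p = 0.037) and without OE_control replicate 1 (-1.41, limma adjusted p = 0.043). No mitochondrial gene passed by limma, where 4 of 17 had an unadjusted p under 0.05, beside 2062 of all 10925 genes. Without OE_IFI6 replicate 1, HARS2 passed at 1.09 (limma adjusted p = 0.049).

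Because the 3 OE_control libraries stood apart, the control vectors were also set against each other. This comparison shares the OE_control libraries with the overexpression comparison, so the values are not independent of it and are given side by side only. In OE_control against sh_control 8 of the 37 genes passed, beside 7.52% of all genes. GARS (0.84), WARS (0.75), SARS (0.55), CARS (0.93) and AARS (0.40) were higher in OE_control and 0 cytosolic genes were lower (limma adjusted p = 0.00085, 0.0014, 0.0055, 0.023 and 0.035). Among all genes 2.75% were higher and 4.78% lower. PARS2 (-0.69), HARS2 (-0.85) and MARS2 (-0.43) were lower in OE_control and 0 mitochondrial genes were higher (limma adjusted p = 0.012, 0.045 and 0.037). SARS2 did not pass here (0.31, limma adjusted p = 0.31). Libraries did not overlap for 9 cytosolic genes higher and 2 lower, and for 1 mitochondrial gene higher and 5 lower, in OE_control, beside 10.1% of all genes higher and 20.3% lower.

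The sh_control libraries behind this comparison lay near the OE_IFI6 ones. GARS averaged 55.2 ± 4.43 FPKM in OE_IFI6 and 59.0 ± 4.57 FPKM in sh_control (SD, n = 3 each), and WARS averaged 19.1 ± 1.24 FPKM in OE_IFI6 and 21.2 ± 0.658 FPKM in sh_control. HARS2 averaged 19.3 ± 6.72 FPKM in OE_IFI6 and 17.5 ± 2.12 FPKM in sh_control. The log2 differences of these 3 genes were -0.09, -0.14 and 0.08, and the lowest of any member was that of SARS2 at -0.51 (limma adjusted p = 1.0). Of all coding genes 0.0183% passed in this comparison, and 503 had an unadjusted p under 0.05. Libraries did not overlap for 1 synthetase gene higher and 3 lower in OE_IFI6 than in sh_control, beside 3.0% and 6.54% of all genes. Which part of each overexpression value goes with IFI6 and which with the OE_control libraries cannot be told apart.

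The calls of the control comparison varied in stability. GARS, WARS and SARS passed in all 22 alternatives. PARS2 was lost without sh_control replicate 1 (-0.62, limma adjusted p = 0.053). CARS was lost without OE_control replicate 2 or 3 or any sh_control library (limma adjusted p = 0.061 to 0.081), AARS without OE_control replicate 2 or 3, sh_IFI6 replicate 1 or any sh_control library (limma adjusted p = 0.052 to 0.11). HARS2 was lost without OE_IFI6 replicate 2, sh_IFI6 replicate 2 or 3, or any OE_control or sh_control library (limma adjusted p = 0.051 to 0.13), and MARS2 without any OE_control, sh_IFI6 or sh_control library (limma adjusted p = 0.054 to 0.13).

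**Figure D4:**
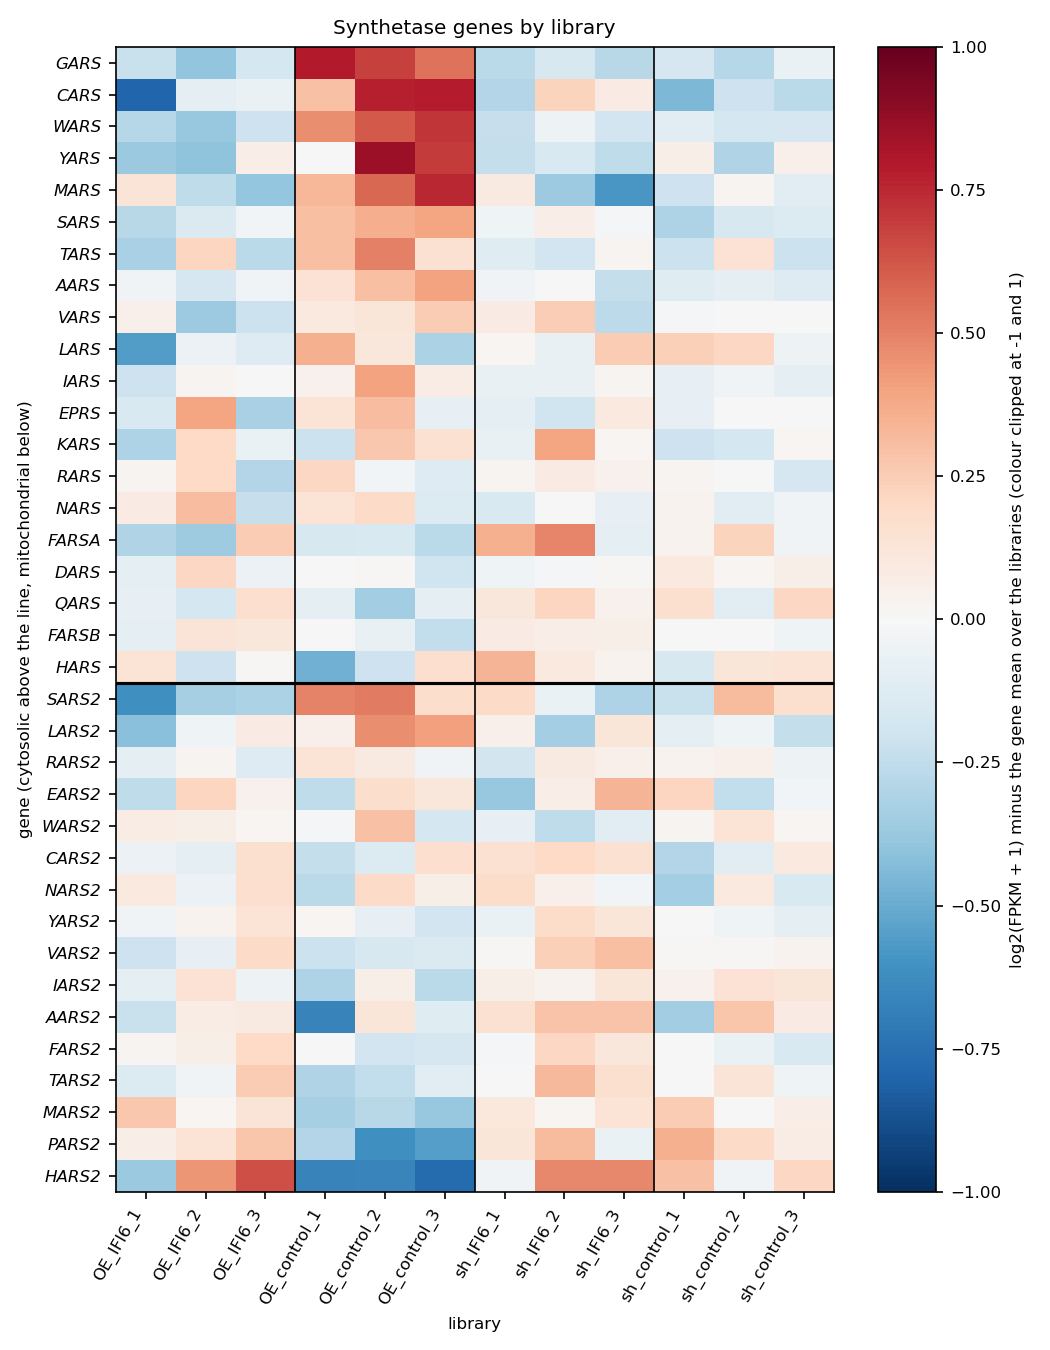
Log2(FPKM + 1) of 36 synthetase genes, each minus its mean over the 12 libraries, with libraries in columns by group, cytosolic genes above the line and mitochondrial genes below it, and colours clipped at -1 and 1. In the OE_control columns GARS, WARS, SARS and CARS are red, and HARS2 and PARS2 are blue.

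Grouped by the enzymes' partners, the 8 cytosolic genes of the multisynthetase complex held 1 of the 6 falls, MARS, and had a median of -0.14 in OE_IFI6 against OE_control. The 12 outside the complex held the other 5 and had a median of -0.40. Among all genes tested 3.56% fell and 4.1% rose, with a median of 0.05. Against sh_control neither subgroup had a call by limma, with 0 at an unadjusted p under 0.05, and the medians were -0.02 and -0.04. Among all genes tested 0.0183% passed against sh_control, and 503 of 10925 had an unadjusted p under 0.05, with a median of -0.04. Synthetases also fall into structural classes I and II, which approach the tRNA from opposite sides. Of the 9 cytosolic class I genes 4 fell (median -0.33), and of the 10 class II genes 2 fell (median -0.07), with EPRS belonging to both. The mitochondrial class I genes had 1 rise of 9 (median 0.07) and the class II genes 2 rises and 1 fall of 8 (median 0.21). Against sh_control the 4 class subgroups had 0 calls by limma, with at most 1 gene at an unadjusted p under 0.05 in each. Differences between these subgroups were not tested. The scaffold genes AIMP1, AIMP2 and EEF1E1 did not pass. AIMP2 stood at 67.6, 61.1 and 67.1 FPKM in OE_IFI6, against 58.4, 44.6 and 45.7 FPKM in OE_control, and was higher without overlap (0.40, limma adjusted p = 0.065). EEF1E1 (0.22, limma adjusted p = 0.33) and AIMP1 (0.14, limma adjusted p = 0.68) were nearer to no difference. Against sh_control the 3 scaffold genes had 0 calls by limma, 0 at an unadjusted p under 0.05 and a median of 0.06.

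Set against the promoter sequences above, the 7 cytosolic genes whose window held TGATGNAA include GARS, CARS and MARS, which fell in OE_IFI6 against OE_control. They also include AARS, TARS and IARS, at -0.37, -0.44 and -0.23, and NARS, at -0.01, none of which passed. SARS and WARS fell with no match of this motif in their windows, and no window was found for YARS. YARS2, the mitochondrial gene with a match, stood at 0.13 and did not pass.

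The transcripts behind the gene values were examined because a gene's value is the sum over its transcripts in the deposited tables. Of 498 annotated transcripts of the 37 genes, 71 coding ones had a mean of at least 1 FPKM and were tested among 17030 coding transcripts. In OE_IFI6 against OE_control 2 fell and 0 rose, beside 0.875% and 0.857% of all coding transcripts. GARS-201 (739 residues), with 67.3% of the gene's FPKM, stood at 35.0, 35.2 and 34.7 FPKM in OE_IFI6, against 78.4, 77.0 and 67.9 FPKM in OE_control. The groups lay far apart (log2 fold change -1.06, SE 0.12, limma adjusted p = 0.0023). AARS-201 stood at 82.5, 75.0 and 83.6 FPKM in OE_IFI6, against 99.1, 115 and 116 FPKM in OE_control, and passed at transcript level (-0.45, SE 0.09, limma adjusted p = 0.045) where the gene just did not. In OE_control against sh_control GARS-201 (0.94, limma adjusted p = 0.0047) and SARS-201 (0.54, limma adjusted p = 0.026) were higher in OE_control, beside 0.734% of coding transcripts, and 0 synthetase transcripts were lower, beside 0.81%. The difference of effects passed for GARS-201 (-1.08, limma adjusted p = 0.026), beside 0.305% of coding transcripts lower. By limma 0 synthetase transcripts passed in sh_IFI6 against sh_control, beside 0.0176% of coding transcripts higher and 0.00587% lower, and 0 in OE_IFI6 against sh_control, beside 0.0352% and 0.00587%. Leaving out any single library but OE_control replicate 1 left 1 transcript that fell in OE_IFI6 against OE_control. Likewise 1 transcript was higher in OE_control than in sh_control without OE_control replicate 2 or 3, sh_IFI6 replicate 3 or sh_control replicate 1 or 2. The difference of effects had 0 calls without OE_IFI6 replicate 1, OE_control replicate 1 or 2, sh_IFI6 replicate 1 or 2, or sh_control replicate 1 or 3.

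The split of FPKM between coding and other transcripts, such as retained introns and targets of nonsense-mediated decay, differed among the genes that fell. For WARS the coding transcripts summed to 15.5 ± 1.59 FPKM in OE_IFI6 and 30.6 ± 4.20 FPKM in OE_control (SD, n = 3 each). For CARS they summed to 3.46 ± 1.90 FPKM in OE_IFI6 and 13.0 ± 4.51 FPKM in OE_control, and the other transcripts to 10.1 ± 4.08 FPKM in OE_IFI6 and 13.4 ± 3.33 FPKM in OE_control. With coding transcripts alone, the CARS difference was larger and more variable and no longer passed (-1.69, limma adjusted p = 0.16). For MARS the coding transcripts summed to 5.14 ± 1.77 FPKM in OE_IFI6 and 5.68 ± 2.12 FPKM in OE_control, and the other transcripts to 3.15 ± 0.663 FPKM in OE_IFI6 and 8.62 ± 2.23 FPKM in OE_control. Most of the MARS difference was thus in FPKM assigned to transcripts that are not annotated as coding. With the coding ones alone the MARS difference was -0.11 (limma adjusted p = 0.87). Their spread was wide, and the coding and other parts were not tested against each other. SARS2 also lost its call with coding transcripts alone (-0.53, limma adjusted p = 0.06), at 4.32 ± 0.526 FPKM in OE_IFI6 and 6.65 ± 0.309 FPKM in OE_control.

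The deposited span of MARS overlaps that of DDIT3, the stress-response transcription factor CHOP (57488081 to 57523557), over most of its length. The 3 MARS transcripts that run past the end of MARS-201 summed to 0.536 ± 0.308 FPKM in OE_IFI6 and 2.99 ± 1.04 FPKM in OE_control, and the remaining MARS transcripts to 7.75 ± 1.78 FPKM in OE_IFI6 and 11.3 ± 1.30 FPKM in OE_control (SD, n = 3 each). In sh_control the 3 transcripts summed to 1.05 ± 0.306 FPKM and the remaining ones to 7.65 ± 0.748 FPKM. DDIT3 stood at 3.38, 4.81 and 4.15 FPKM in OE_IFI6, against 17.3, 19.1 and 21.8 FPKM in OE_control. In all, 23 of the 37 genes overlap another gene with a mean of at least 1 FPKM, among them SARS2 with the mitochondrial ribosomal gene MRPS12 (72.8 FPKM) and YARS with S100PBP (12.0 FPKM). Strand use is not given, so reads of such pairs cannot be told apart, and what the neighbours add to the synthetase values was not tested.

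For some genes the assigned transcript changed from library to library within a group. LARS-202 (1176 residues) stood at 30.5, 44.6 and 33.9 FPKM in OE_IFI6, against 3.55, 40.1 and 31.5 FPKM in OE_control, while LARS-212 (1122 residues) was at 60.6 FPKM in OE_control replicate 1, at 52.8 and 51.0 FPKM in sh_control replicates 1 and 2, and listed at 0 in the other 9 libraries. Where one of the pair was high the other was low. For KARS the transcript of the mitochondrial form, KARS-202 (625 residues), stood at 62.2 FPKM in OE_IFI6 replicate 3, at 44.5 FPKM in sh_IFI6 replicate 3 and at 4.45 to 17.8 FPKM elsewhere. The transcript of the cytosolic form, KARS-201 (597 residues), stood at 50.8 FPKM in OE_control replicate 1 and at 2.88 to 15.7 FPKM elsewhere. KARS-204, a target of nonsense-mediated decay, took 54.5% of the gene's FPKM over the 12 libraries. The main KARS transcript thus changed from library to library in 3 of the 4 groups and was KARS-204 throughout sh_control. HARS2-218, the main HARS2 transcript with 48.2% of the gene, stood at 1.24, 18.1 and 22.2 FPKM in OE_IFI6, against 1.49, 3.24 and 2.05 FPKM in OE_control. In the hairpin groups HARS2-218 stood at 1.31, 6.35 and 16.0 FPKM in sh_IFI6, against 11.2, 1.51 and 10.3 FPKM in sh_control, so that it too varied within 3 of the 4 groups.

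**Figure D5:**
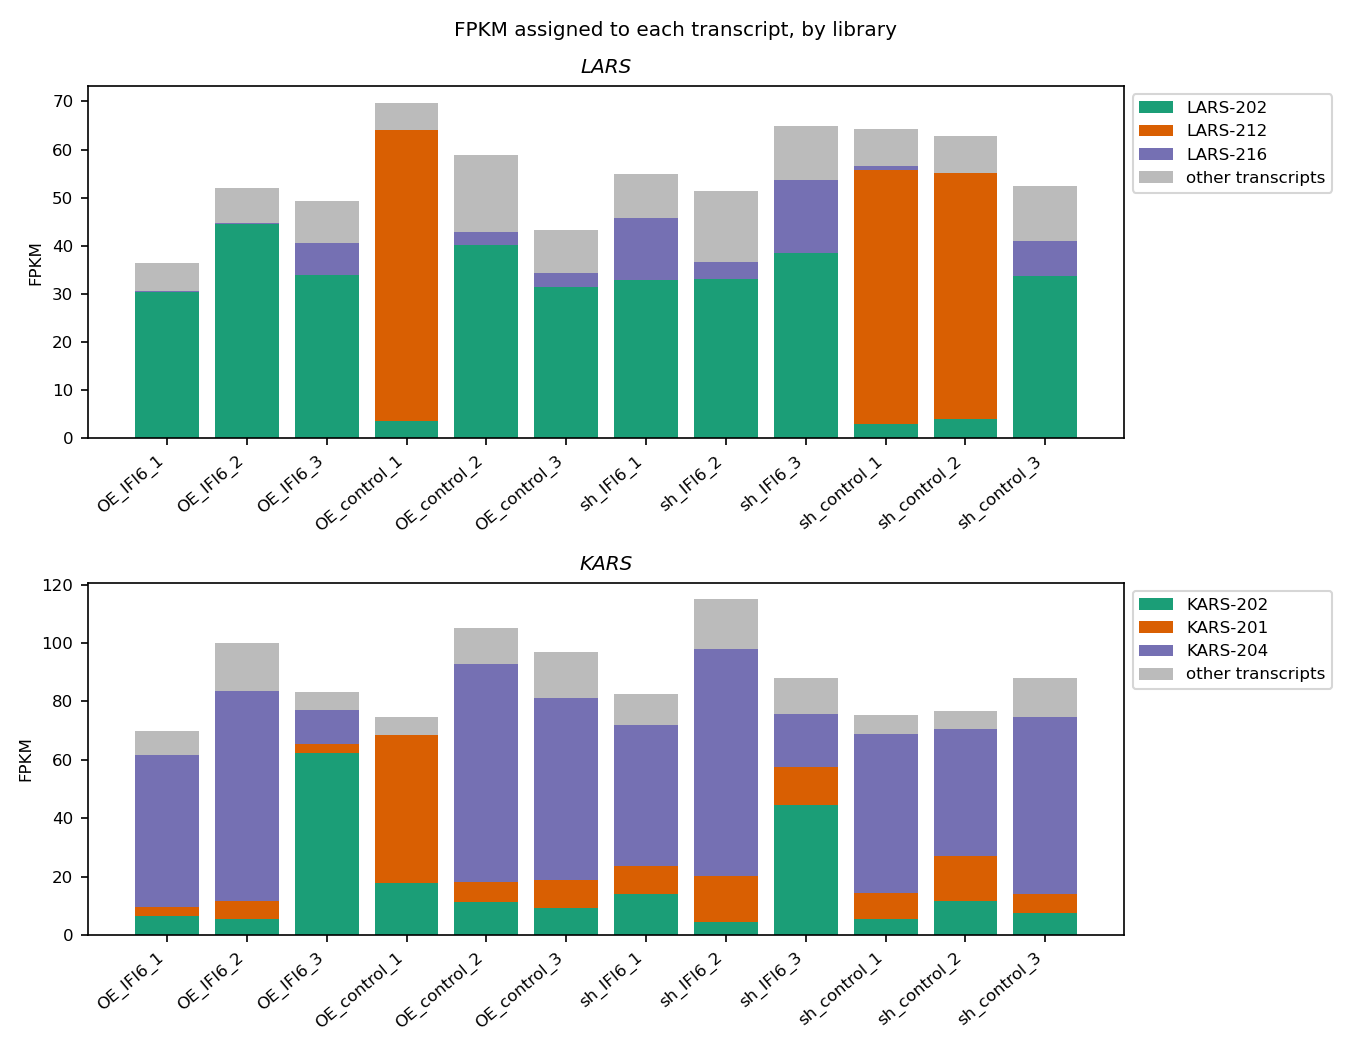
FPKM assigned to the transcripts of LARS and KARS in each library, stacked, with grey for the other transcripts. LARS-212 appears in 3 libraries, at 51.0 to 60.6 FPKM, in place of LARS-202, and the main KARS transcript changes within 3 of the 4 groups.

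Other parts of the tRNA and translation machinery were counted in OE_IFI6 against OE_control, where 4.1% of all genes rose and 3.56% fell. A single call in a list of 21 is near those shares. Of 11 tested enzymes related to synthetases or that edit or release charged tRNAs, 2 rose and 0 fell (median 0.02). PTRHD1, a peptidyl-tRNA hydrolase family gene, stood at 14.1, 15.1 and 15.0 FPKM in OE_IFI6, against 9.85, 7.09 and 9.58 FPKM in OE_control, without overlap (0.69, SE 0.13, limma adjusted p = 0.011). The other was DTD2, a D-aminoacyl-tRNA deacylase family gene (0.52, limma adjusted p = 0.037). Among 21 genes of tRNA export and maturation 2 rose (TSEN15 and RPP40) and 1 fell (TSEN34), with a median of 0.26. Among 21 genes of RNA polymerase III and its factors, which transcribe tRNA genes, 1 rose (MAF1, a repressor of the polymerase) and 1 fell (BRF2), with a median of 0.21. Of 8 cytosolic elongation genes 1 rose (EEF2K, the kinase of elongation factor EEF2; median 0.05), and of 12 mitochondrial translation factors 0 passed by limma, with 1 at an unadjusted p under 0.05 (median 0.08). Each of these calls but that of PTRHD1 was lost when single libraries were left out, and they held in 7 to 15 of 22 alternatives. OE_IFI6 against sh_control gave 0 calls by limma in each of these lists, with at most 1 gene in a list at an unadjusted p under 0.05. Of all 10925 genes, 0.0183% passed in that comparison and 503 had an unadjusted p under 0.05.

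The integrated stress response was read from 27 tested regulators and targets, a list chosen with results of these data known. In OE_IFI6 against OE_control 12 fell and 2 rose, with a median of -0.41, beside 3.56% and 4.1% of all genes. In OE_control against sh_control 13 were higher and 2 lower in OE_control, with a median of 0.43, beside 2.75% and 4.78% of all genes. DDIT3 fell (log2 fold change -2.00, SE 0.14, limma adjusted p = 1.2e-05), as did the stress cytokine GDF15 (-2.31, limma adjusted p = 6e-05) and SESN2, a leucine sensor (-1.17, limma adjusted p = 7.3e-05), each in all 22 alternatives. The 2 that rose were amino acid transporters, SLC7A5 (0.70, limma adjusted p = 0.0044) and SLC7A1 (0.54, limma adjusted p = 0.04), named after their values were seen. Leaving out any OE_IFI6, OE_control or sh_control library or sh_IFI6 replicate 1 ended the call of SLC7A1 (limma adjusted p = 0.052 to 0.13). ATF4 itself stood at 221, 247 and 276 FPKM in OE_IFI6, against 330, 312 and 332 FPKM in OE_control. Its groups did not overlap (-0.39, SE 0.10, limma adjusted p = 0.033), but the call held in 12 of 22 alternatives and was lost, among others, without OE_IFI6 replicate 1 (limma adjusted p = 0.1). A list of 6 genes held those of the eIF2 alpha kinases, of GCN1 and of eIF2 alpha itself. Of these 0 passed by limma and 1 had an unadjusted p under 0.05, EIF2AK3 (-0.48, limma adjusted p = 0.075). In OE_IFI6 against sh_control the list of 27 had 0 calls by limma, 1 at an unadjusted p under 0.05 and a median of -0.09, and in sh_IFI6 against sh_control it likewise had 0 and 1 with a median of 0.07. Over all 10925 genes, 0.0183% passed and 503 had an unadjusted p under 0.05 in the first of these comparisons (median -0.04). In the other, 0.0% passed and 563 had an unadjusted p under 0.05 (median 0.0). DDIT3, GDF15 and SESN2 thus stood apart in the OE_control libraries, as GARS, WARS and SARS did, and the part of stress signalling in the synthetase values was not tested.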

How the data were processed

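The values used are FPKM per gene and per transcript, computed by the authors and deposited as tables. Per the submitters' processing notes, the tools were HISAT2, StringTie, edgeR and Cuffdiff, without versions or roles. Genome build, annotation and use of strand were not given in the sources used here. Coordinates of genes are those of the deposited tables, and all 37 synthetase genes overlapped the GENCODE release 29 (GRCh38) gene of the same identifier, 17 with both bounds within 1 base. Transcript types and protein lengths were taken from GENCODE release 29 by identifier, for 204 of the 212 synthetase transcripts with a mean of at least 0.3 FPKM. Promoter sequences are RefSeq's, on GRCh38.p14. Read counts were not used here, so the depth behind each value is unknown and values near 1 FPKM carry the most counting error.

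Coding genes averaging 1 FPKM or more were tested as log2(FPKM + 1) with limma 3.58.1 in R 4.3.3, tables being read with data.table (version 1.17.8). One group-means model over the 12 libraries, with a trended prior variance and 8 residual degrees of freedom, gave two-sided tests with Benjamini-Hochberg adjustment over all genes tested. Coding transcripts were fitted the same way. The deposited gene value equalled the sum of its transcripts to within 0.00175 FPKM, and 0 libraries were duplicates. The script was tested on simulated data. Tables and figures were made with Python 3.11.15, pandas 2.3.3, numpy 2.4.6 and matplotlib 3.10.9.

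Groups and replicate numbers come from the sample titles. Full values are given for each synthetase gene that passed in any comparison and, whatever their values, for WARS, GARS, KARS, MARS, HARS, HARS2 and EPRS. From the other lists up to 3 genes of smallest p are named, with AIMP1, AIMP2, EEF1E1, ATF4, DDIT3 and IFI6. VARS, IARS, TARS, FARS2, AARS transcripts and LARS transcripts were named after their values were seen. The members, gene lists and tests were chosen with earlier results of these data known. Alternatives were a pseudocount of 0.1, no filter or a minimum mean of 5 FPKM, quantile normalization, median-of-ratios scaling, limma without the trend, a replicate block, fits of the groups compared alone, the table of all annotated genes, leaving out each library, and sums of coding transcripts, the last added after the data were seen. A few items are not reported here, and 1 synthetase gene is not drawn in the figures.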

Additional observations from a re-analysis of the deposited data

Results flagged for a closer look

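For 3 cytosolic synthetase genes the effect of overexpression differed from that of the hairpin, by the interaction term of the limma fit with Benjamini-Hochberg adjustment over all genes. Of all genes 2.69% passed, 1.51% in the same direction as these 3. The overexpression effect minus the hairpin effect was -0.87 on the log2 scale for GARS, from effects of -0.94 and -0.06. It was -0.89 for WARS, from -0.89 and -0.00. It was -0.71 for SARS, from -0.51 and 0.20. The SARS call was kept in 17 of 21 alternatives. In each case the OE_control libraries were the highest of the 12. OE_IFI6 against sh_control gave -0.09 for GARS, -0.14 for WARS and 0.05 for SARS, none of which passed. IFI6 itself differed by 3.62 in the overexpression comparison and by -0.64 in the hairpin comparison. Which part of each difference goes with IFI6 and which with the OE_control libraries cannot be told apart.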

How the results depend on the processing

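In 22 alternatives (21 for some results) no call changed its direction, and the counts for sh_IFI6 against sh_control and OE_IFI6 against sh_control stayed at 0. With 1 library left out, the cytosolic genes that fell in OE_IFI6 against OE_control numbered 3 to 7 (3 without OE_control replicate 2 or 3), the mitochondrial genes that fell 0 to 1 and those that rose 0 to 3 (0 without OE_control replicate 3). In OE_control against sh_control, 3 to 6 cytosolic genes were higher and 0 to 3 mitochondrial genes lower. For the difference of effects, 2 to 4 cytosolic genes were lower and 0 to 1 mitochondrial genes higher. Synthetase transcripts that fell numbered 1 to 2, those higher in OE_control than in sh_control 1 to 2, and those lower in the difference of effects 0 to 1. Fitting only the groups compared left 2 cytosolic falls and 0 mitochondrial rises and falls in OE_IFI6 against OE_control, where calls over all genes dropped to 167, against 837 with all libraries, and to 429, against 822, in OE_control against sh_control. Sums of coding transcripts left 0 mitochondrial falls. In OE_control against sh_control, median-of-ratios scaling left 1 and quantile normalization 0 mitochondrial genes lower, and quantile normalization gave 1 higher. There 36.5% of calls over all genes were higher (300 of 822), beside 57.9% (483 higher and 351 lower) with median-of-ratios scaling and 53.4% (378 and 330) with quantile normalization. A minimum mean of 5 FPKM gave 2 transcripts lower in the difference of effects. The causes were not tested. The labels do not say whether equal replicate numbers pair the libraries, and no pairing was assumed in the main fit. Same-numbered libraries correlated at 0.087, 0.254 and 0.124 between OE_IFI6 and OE_control, and at 0.197, 0.014 and 0.123 between OE_control and sh_control. Between OE_IFI6 and sh_control the values were 0.126, 0.026 and 0.031. They were -0.043 to -0.01 between sh_IFI6 and sh_control, -0.146 to 0.127 between OE_IFI6 and sh_IFI6, and -0.127 to -0.01 between OE_control and sh_IFI6. Between OE_IFI6 and OE_control every library did correlate best with its own number (highest value between different numbers 0.031), a hint from the data and not from the design. Libraries of different numbers also correlated elsewhere, OE_IFI6 replicate 2 with sh_IFI6 replicate 3 (0.205) and OE_IFI6 replicate 3 with sh_IFI6 replicate 2 (0.16). Whether libraries shared a batch under other numbers was not tested. With the replicate block, 1 transcript fell in OE_IFI6 against OE_control and 0 were lower in the difference of effects. MARS and YARS lost their calls in OE_IFI6 against OE_control (limma adjusted p = 0.054 each), AARS lost its call in OE_control against sh_control (limma adjusted p = 0.058), and CARS gained one in the difference of effects (limma adjusted p = 0.0083).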
